A study of Homo sapiens with 12 samples.

Results

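This account is of 7 genes, ELOVL2, EFR3B, TFAP2C, IER3, NPPC, CEMIP and TMEM158, out of 14599 named genes. They were measured in the human melanoma line Hs695T on Affymetrix arrays, which read 1 labelled sample each. They were chosen from these same arrays because their signal was low after BRAF and MEK inhibition and less low when the histone deacetylase inhibitor entinostat was given as well. IER3 has 2 rows in the deposited table and each of the others has 1, so the genes take up 8 of 29592 rows. The cells had 24 h of treatment, with 3 arrays in each of 4 groups. The DTE group received dabrafenib (100 nM, a BRAF inhibitor), trametinib (10 nM, a MEK inhibitor) and entinostat (1 µM, an inhibitor of class I histone deacetylases). The DT group received dabrafenib and trametinib at those doses, the E group entinostat alone at that dose, and the DMSO group the vehicle. A single cell line was used throughout. The titles number biological replicates, whereas the design text speaks of technical triplicates. The p-values below therefore measure the spread between these arrays, which may be technical.

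In melanoma with an active MAPK pathway, the kinase ERK drives transcription of growth genes and of the pathway's own feedback inhibitors, and BRAF and MEK inhibitors switch that output off. Class I histone deacetylases remove acetyl groups from histones, and their inhibition raises some genes and lowers others. The 7 genes have unlike products. ELOVL2 lengthens long-chain polyunsaturated fatty acids. EFR3B anchors the kinase that makes phosphatidylinositol 4-phosphate at the plasma membrane. TFAP2C is a transcription factor of the AP-2 family, known in trophoblast and neural crest development. IER3 is an immediate early gene, a known target and substrate of ERK with a role in cell survival. NPPC encodes C-type natriuretic peptide, the ligand of a receptor that makes cyclic GMP. CEMIP binds hyaluronan and takes part in its breakdown. TMEM158 is a membrane protein first described as induced by RAS during senescence.

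The genes lie on 5 chromosomes (6 for ELOVL2 and IER3, 2 for EFR3B and NPPC, 20 for TFAP2C, 15 for CEMIP and 3 for TMEM158). RefSeq promoter windows of GRCh38.p14 were matched by symbol for 5 of the 7, all but TFAP2C and IER3. The last 120 bases before the start of each gene are shown because genes that move together invite a look at what their promoters hold, with GC boxes (GGGCGG on either strand) and TATA boxes (TATAAA) in capitals. ELOVL2 is at chr6:11044306-11044425, minus strand, EFR3B at chr2:25041956-25042075, plus strand, NPPC at chr2:231926397-231926516, minus strand, CEMIP at chr15:80779250-80779369, plus strand and TMEM158 at chr3:45226288-45226407, minus strand.
ELOVL2: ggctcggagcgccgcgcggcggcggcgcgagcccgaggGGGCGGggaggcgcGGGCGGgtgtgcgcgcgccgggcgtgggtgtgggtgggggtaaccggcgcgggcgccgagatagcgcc
EFR3B: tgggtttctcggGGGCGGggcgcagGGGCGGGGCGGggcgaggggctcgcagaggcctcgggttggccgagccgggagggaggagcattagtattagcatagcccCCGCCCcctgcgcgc
NPPC: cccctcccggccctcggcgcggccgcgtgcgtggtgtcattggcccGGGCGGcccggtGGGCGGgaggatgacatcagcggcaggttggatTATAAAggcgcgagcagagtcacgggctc
CEMIP: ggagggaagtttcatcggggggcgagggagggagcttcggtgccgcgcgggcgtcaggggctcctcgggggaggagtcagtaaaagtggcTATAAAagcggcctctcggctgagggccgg
TMEM158: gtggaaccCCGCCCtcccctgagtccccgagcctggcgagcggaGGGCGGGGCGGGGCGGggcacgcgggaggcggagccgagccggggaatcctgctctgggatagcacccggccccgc
Over the 250 bases before the start, these windows were GC-rich, at 84.8% for ELOVL2, 82.4% for TMEM158, 74.4% for CEMIP, 72% for NPPC and 71.2% for EFR3B, against a median of 58% over all 35116 windows in the table. All 5 held a GC box, which 42.6% of all windows hold. TMEM158 had 7 matches (overlapping ones counted separately), ELOVL2 and EFR3B had 4 each, CEMIP had 3, all of them farther upstream than the bases shown, and NPPC had 2. A TATA box stood 29 bases before the start in NPPC and 30 in CEMIP, and 10.7% of all windows have one. The AP-2 sequence GCCNNNGGC was found in NPPC and not in the other 4 (19.8% of all windows). None of the 5 windows held the ETS sequence CCGGAA (14.5% of all windows), the AP-1 sequence TGANTCA (6.57%) or the cyclic AMP response element TGACGTCA (1.65%) on either strand. These matches describe letters in a short window and do not show binding.

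Signal over the whole array differed between groups, which bears on every value below. Median intensity per array ranged from 33.3 to 39.9 in DTE, 37.5 to 40.8 in DT, 48.3 to 51.6 in E and 50.6 to 57.6 in DMSO. Differences are on the log2 scale of the deposited values, each ± its standard error from limma, and those marked "quantile" come from the same values after quantile normalization over genes. The median difference over all genes was -0.23 for DTE minus DT (quantile -0.03), -0.48 for DT minus DMSO (quantile 0.01) and -0.20 for E minus DMSO (quantile -0.04). Fewer cells of a kind and less RNA per cell cannot be told apart on such arrays. Of 10 melanocyte lineage markers 9 were measured, and their summed log2 intensity was 10.74 to 10.76 in DTE, 10.95 to 11.17 in DT, 11.55 to 11.67 in E and 12.03 to 12.19 in DMSO. SOX10, a neural crest transcription factor, averaged 8.80 in DTE, 9.61 in DT, 8.87 in E and 9.96 in DMSO, whereas the pigment enzyme gene TYR stayed between group means of 3.58 and 3.81. The melanosome gene PMEL differed from SOX10 in being higher in DTE than in DT and in E than in DMSO. Its means were 5.82 in DTE, 5.47 in DT, 7.14 in E and 6.07 in DMSO, and on the deposited scale both genes were lower in DT than in DMSO. MITF averaged 5.12 in DTE, 6.21 in DT, 5.79 in E and 6.09 in DMSO. Of the 9 markers, 1 was higher and 4 lower in DTE than in DT at an adjusted limma p under 0.05 (8.68% and 40.6% of all genes). Among markers of other cell types, 2 of 8 fibroblast, 6 of 7 keratinocyte, 4 of 7 immune and 2 of 5 endothelial genes were measured. Their summed log2 intensities were 3.75 to 3.78, 7.17 to 7.58, 8.44 to 8.53 and 6.98 to 7.22 in DTE. In DT they were 3.52 to 3.70, 7.40 to 7.58, 8.09 to 8.29 and 6.12 to 6.47. In E they were 3.68 to 3.81, 7.52 to 7.68, 8.91 to 9.26 and 9.43 to 9.50, and in DMSO 3.70 to 3.83, 7.37 to 7.57, 8.92 to 9.04 and 8.65 to 8.85. The endothelial sum follows KDR, a receptor that averaged 6.83 in DTE, 5.68 in DT, 9.40 in E and 8.60 in DMSO. The part of other cells in the results was not tested.

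ELOVL2 regained the most. Its log2 intensity was 7.28, 7.32 and 7.36 in the DTE arrays and 5.43, 5.66 and 5.42 in the DT arrays, against 8.59, 8.63 and 8.65 in E and 9.13, 9.03 and 9.02 in DMSO. No array of one group overlapped another group's range, and the 4 groups stood in the order DT, DTE, E, DMSO. ELOVL2 was 3.51-fold higher in DTE than in DT (1.81 ± 0.10, quantile 2.32) and 11.8-fold lower in DT than in DMSO (-3.56 ± 0.10, quantile -2.76). These 2 differences are the ones the gene was chosen on, here and for the other 6 genes, and they are given as a description with no test.

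EFR3B followed the same order without overlap. It measured 7.26, 7.32 and 7.31 in DTE and 6.04, 5.94 and 5.64 in DT, against 8.45, 8.58 and 8.55 in E and 9.09, 8.94 and 9.17 in DMSO. The DT arrays were the most spread, with an SD of 0.21 (n = 3), and the DTE arrays the tightest, with an SD of 0.03 (n = 3). The anchor gene was 2.69-fold higher in DTE than in DT (1.43 ± 0.11, quantile 1.95) and 9.16-fold lower in DT than in DMSO (-3.20 ± 0.11, quantile -2.41).

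TFAP2C had 8.66, 8.79 and 8.57 in DTE and 7.20, 7.25 and 7.22 in DT, against 10.44, 10.47 and 10.57 in E and 10.90, 10.74 and 10.88 in DMSO. Again the groups did not overlap, with DT lowest and DMSO highest. This transcription factor gene was 2.73-fold higher in DTE than in DT (1.45 ± 0.10, quantile 1.89) and 12.2-fold lower in DT than in DMSO (-3.61 ± 0.10, quantile -2.90).

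IER3, the immediate early gene, was read by 2 rows. The brighter row gave 8.99, 9.37 and 9.29 in DTE and 8.10, 8.09 and 7.91 in DT, against 10.81, 11.02 and 10.98 in E and 11.01, 10.89 and 11.08 in DMSO. On it the DTE arrays lay above the DT arrays, while E and DMSO arrays overlapped. The difference was 1.18 ± 0.12 for DTE minus DT (quantile 1.56) and -2.96 ± 0.12 for DT minus DMSO (quantile -2.26). The dimmer row gave 5.44, 5.80 and 5.51 in DTE and 5.23, 5.54 and 5.26 in DT, against 6.63, 6.67 and 6.38 in E and 7.22, 6.84 and 6.90 in DMSO. There the DTE and DT arrays overlapped, and the difference was 0.24 ± 0.14, so the rows disagree on its size. With the mean of both rows DTE minus DT was 0.71.

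NPPC was the furthest below DMSO in DT. The peptide gene measured 7.63, 7.73 and 7.69 in DTE and 6.51, 6.69 and 6.61 in DT, against 11.63, 11.93 and 11.93 in E and 11.90, 11.80 and 11.99 in DMSO. E and DMSO arrays overlapped, DTE arrays lay above DT arrays, and both MAPK-inhibited groups lay far below the other groups. NPPC was 2.11-fold higher in DTE than in DT (1.08 ± 0.11, quantile 1.57) and 39.1-fold lower in DT than in DMSO (-5.29 ± 0.11, quantile -4.71).

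CEMIP and TMEM158 had the smallest differences between DTE and DT, apart from the dimmer IER3 row. CEMIP, the hyaluronan-binding gene, measured 8.42, 8.10 and 8.26 in DTE and 7.61, 7.78 and 7.51 in DT, against 10.41, 10.62 and 10.61 in E and 11.74, 11.58 and 11.67 in DMSO. Its groups did not overlap, and DTE exceeded DT by 1.54-fold (0.63 ± 0.11, quantile 1.10) after a 16.3-fold lower level in DT than in DMSO (-4.03 ± 0.11, quantile -3.44). TMEM158 measured 6.75, 6.94 and 6.88 in DTE and 6.39, 6.50 and 6.34 in DT, against 8.25, 8.40 and 8.45 in E and 9.60, 9.58 and 9.67 in DMSO. These groups were separate too, with DTE 1.36-fold above DT (0.44 ± 0.10, quantile 0.93) and DT 9.21-fold below DMSO (-3.20 ± 0.10, quantile -2.43).

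**Figure D1:**
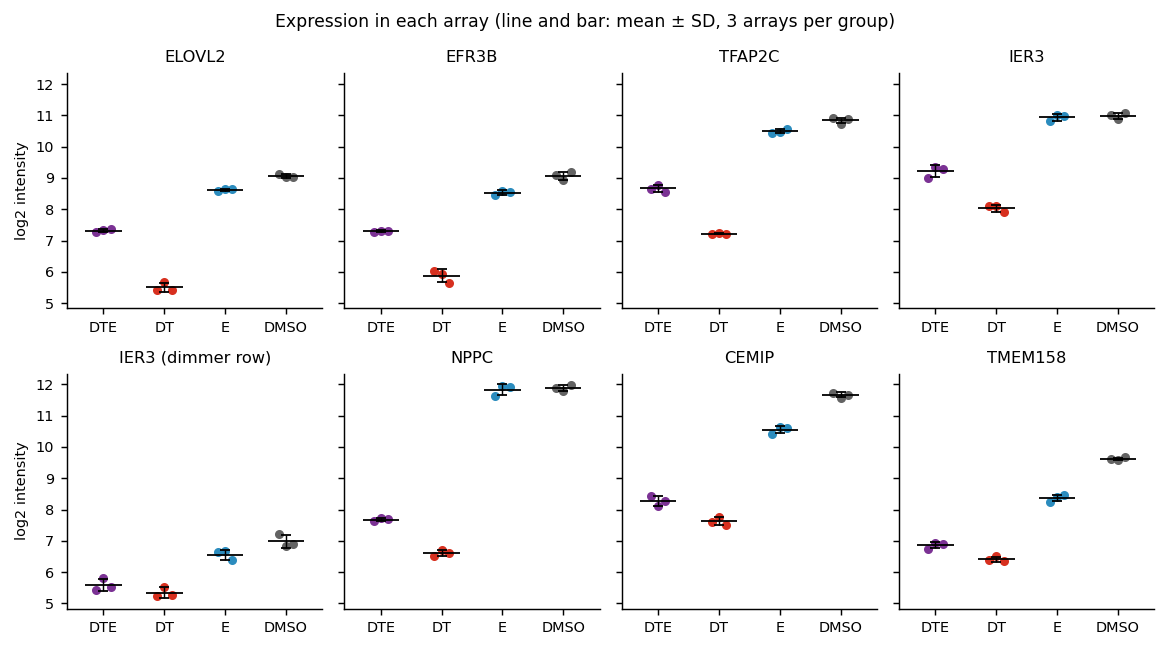
Log2 intensity of the 7 genes (IER3 with both rows) in each array of the DTE, DT, E and DMSO groups, with points for arrays and a line and bar for mean ± SD of 3 arrays. DT has the lowest mean in all 8 panels, and the DTE points lie above the DT points in all but the dimmer IER3 row, where they overlap.

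Set against all genes, 1267 of 14599 passed as higher in DTE than in DT (8.68%) and 9660 as lower in DT than in DMSO (66.2%), at a Benjamini-Hochberg adjusted limma p under 0.05. The 7 genes pass both because they were chosen on these comparisons, so nothing is read from that. The same holds after quantile normalization, where 19.9% and 13.9% of all genes passed, and for arrays without overlap, where all 7 stood apart both ways beside 9.99% and 67.8% of all genes. Among the 1813 genes that passed as lower by at least 1 in DT, 358 passed as higher in DTE than in DT and 841 as lower, with a median DTE minus DT of -0.24. By size of DTE minus DT within these 1813 genes, ELOVL2 ranked 10th, TFAP2C 30th, EFR3B 31st, IER3 52nd (brighter row), NPPC 73rd, CEMIP 189th and TMEM158 265th. Nothing is read from these ranks either, since the choice favours high ones.

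**Figure D2:**
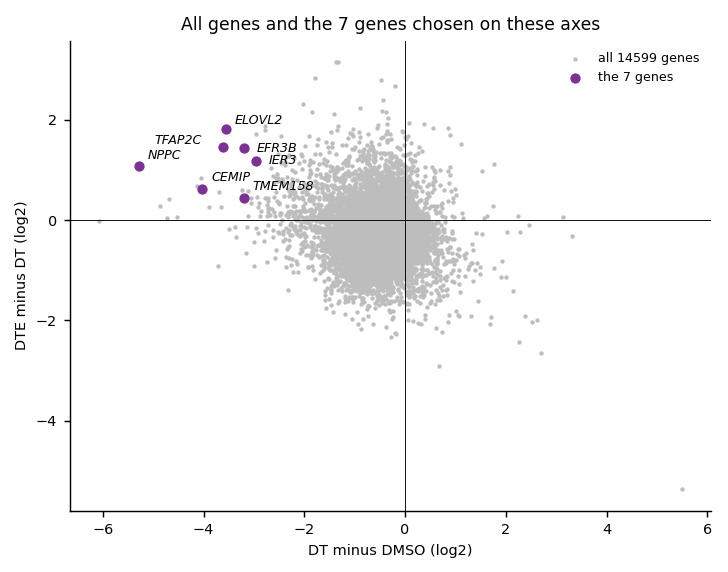
DTE minus DT against DT minus DMSO (log2 differences) for all 14599 genes in grey and the 7 genes in purple. The 7 genes (IER3 by its brighter row) sit at -5.29 to -2.96 on the horizontal axis and 0.44 to 1.81 on the vertical axis, the corner they were chosen from.

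The gain was partial in every gene. In DTE the 7 genes, with IER3 read from its brighter row, reached 5.39% to 29.9% of the DMSO intensity (means of log2 values), and in DT 2.55% to 12.9%. On the log2 scale ELOVL2 regained 51.0% of its distance between DT and DMSO (49.8% to 52.1% over the 3 DTE arrays). EFR3B regained 44.7% (43.6% to 45.3%), TFAP2C 40.1% (37.1% to 43.3%) and IER3 39.9% on its brighter row (32.3% to 45.0%). The dimmer IER3 row regained only 14.9% (6.15% to 28.1%), at 37.9% of the DMSO intensity in DTE and 32.0% in DT. NPPC regained 20.3% (19.3% to 21.2%), CEMIP 15.5% (11.6% to 19.5%) and TMEM158 13.9% (10.4% to 16.6%). With the brighter IER3 row, the array ranges of EFR3B and IER3, of TFAP2C and IER3, of NPPC and CEMIP, and of CEMIP and TMEM158 overlap. The lowest array of that IER3 row lies above the highest NPPC array, whereas the range of the dimmer row overlaps those of NPPC, CEMIP and TMEM158. These shares move with the scaling. After quantile normalization they were 84.3% for ELOVL2, 80.8% for EFR3B, 65.0% for TFAP2C, 69.2% for IER3, 33.4% for NPPC, 31.9% for CEMIP and 38.4% for TMEM158. On the deposited scale all 3 DTE arrays lay below all 3 E arrays in 7 of 7 genes (70.9% of all genes). They lay below all 3 DMSO arrays in 7 of 7 as well (72.4% of all genes). Most genes do the same on this scale, where DTE arrays were dimmer as a whole than E and DMSO arrays, so little is read from these counts. DTE minus E was -1.23 ± 0.11 for EFR3B, the least, and -4.15 ± 0.11 for NPPC, the most (quantile -0.33 and -3.25).

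Entinostat alone was then compared with vehicle. The stated rule for choosing the genes called for low DT values and higher DTE values, but E arrays were among those compared for it. The choice was made with earlier results of these data known. It also shared the DMSO arrays, and choosing genes low in DT against DMSO favours lower values in E minus DMSO too. This comparison is thus tied to the choice as well, and its p-values are not independent of it. Of the 7 genes 5 passed as lower in E and 0 as higher, and over all genes 37.2% passed as lower and 10.4% as higher. In the same 5 genes every E array lay below every DMSO array (43.2% of all genes). After quantile normalization 2 passed as lower and 1 as higher, beside 21.1% and 18.5% of all genes. TMEM158 averaged 8.37 ± 0.11 in E and 9.62 ± 0.05 in DMSO (SD, n = 3 each), a difference of -1.25 ± 0.10 (limma adjusted p = 9.4e-08, quantile -0.87). CEMIP averaged 10.55 ± 0.12 in E and 11.66 ± 0.08 in DMSO (SD, n = 3 each), a difference of -1.12 ± 0.11 (limma adjusted p = 8.5e-07, quantile -0.93). These falls passed on both scales and left the genes at 42.1% and 46.1% of the DMSO intensity. EFR3B (-0.54 ± 0.11, limma adjusted p = 0.00092), ELOVL2 (-0.44 ± 0.10, limma adjusted p = 0.0015) and TFAP2C (-0.35 ± 0.10, limma adjusted p = 0.0083) were lower by less. Their calls were lost after quantile normalization, with differences of -0.13 (adjusted p = 0.23), -0.02 (adjusted p = 0.86) and -0.03 (adjusted p = 0.75). IER3 did not pass (-0.06 ± 0.12, limma adjusted p = 0.73), but after quantile normalization it passed as higher (0.25, adjusted p = 0.042). Its dimmer row, fitted with all rows, was -0.42 ± 0.14 (limma adjusted p = 0.025 over 29592 rows). NPPC did not pass on either scale (-0.07 ± 0.11, limma adjusted p = 0.66, quantile 0.11 with adjusted p = 0.34). Thus 2 of the 7 genes were lower with entinostat alone on both scales and 0 were higher on both.

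**Figure D3:**
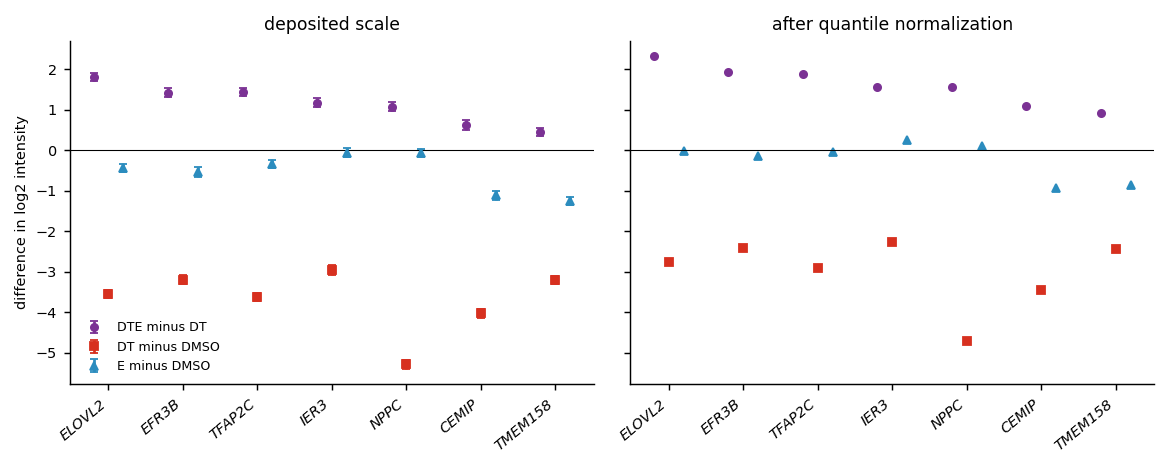
Differences in log2 intensity for DTE minus DT, DT minus DMSO and E minus DMSO in the 7 genes, on the deposited scale with limma standard errors (left) and after quantile normalization without error bars (right). DTE minus DT is above 0 and DT minus DMSO below 0 for all 7 on both scales, while E minus DMSO is near 0 or below it except for IER3 after quantile normalization (0.25).

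Entinostat's difference with the MAPK inhibitors present can be set beside its difference without them, as (DTE minus DT) minus (E minus DMSO). This was 2.25 ± 0.14 for ELOVL2, 1.97 ± 0.16 for EFR3B, 1.79 ± 0.14 for TFAP2C, 1.74 ± 0.16 for CEMIP, 1.69 ± 0.14 for TMEM158 and 1.14 ± 0.15 for NPPC. For IER3 it was 1.24 ± 0.17 on the brighter row, used below, and 0.67 ± 0.20 on the dimmer row. After quantile normalization it ran from 1.32 to 2.35 over the 7 genes, and the median over all genes was -0.05 (quantile 0.00). In ETV4, SPRY4, DUSP6 and CCND1, well-known outputs of the MAPK pathway, it was 1.44, 1.30, 0.67 and 0.31. SPRY4 had this value with a DTE minus DT of -0.03, so a large value need not mean a gain in DTE. Since DTE and DT arrays chose the genes, these values carry no test. If log2 differences of the drugs had simply added up, ELOVL2 would have averaged 5.07 in DTE, where 7.32 was measured, and TMEM158 5.16, where 6.86 was measured. Within the 1813 genes lower in DT, ELOVL2 ranked 2nd by this value, EFR3B 6th, TFAP2C 7th, CEMIP 8th, TMEM158 10th, IER3 48th (brighter row) and NPPC 66th. The choice of the genes favours high ranks, so nothing is read from them.

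Among the genes low in DT, most of the largest gains came with a rise in entinostat alone. Of the 10 other such genes with the largest DTE minus DT, 9 also passed as higher in E than in DMSO (10.4% of all genes). NMNAT2, a gene of NAD synthesis, was 3.15 higher in DTE than in DT and 2.84 higher in E than in DMSO, and VAT1L was 3.15 and 3.14 higher. STC1, which encodes the secreted protein stanniocalcin (2.32 and 2.28), and the receptor tyrosine kinase gene MET (2.16 and 1.86) were alike in this. The exception was PTCHD1, with 1.87 for DTE minus DT and 0.30 for E minus DMSO, which did not pass. The others were LINC00052, PKP2, ALPK2, SNAR-H and CEACAM1, with 1.80 to 2.83 for DTE minus DT, and SNAR-H belongs to a multicopy family whose members the array may not separate. Of all 351 other genes that were low in DT and higher in DTE, 149 passed as higher in E, 57 as lower and 145 did not pass. Over all genes 10.4% passed as higher in E and 37.2% as lower.

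**Figure D4:**
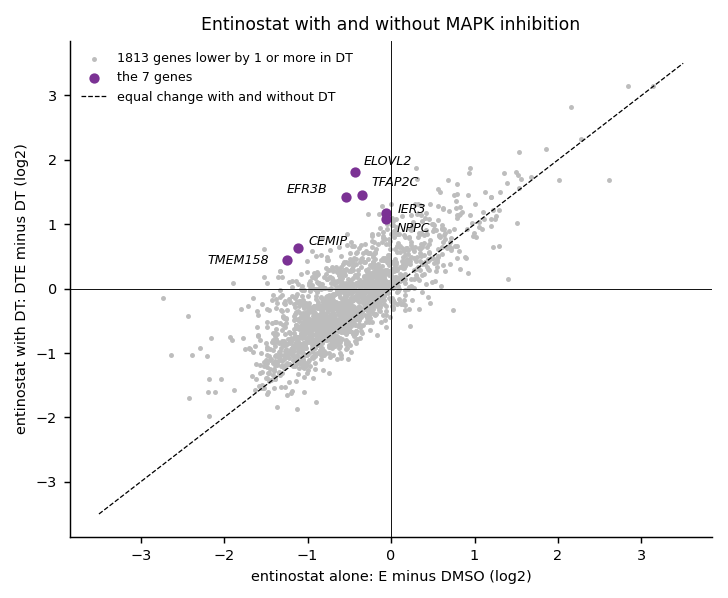
DTE minus DT against E minus DMSO (log2 differences) for the 1813 genes that passed as lower by at least 1 in DT, with the 7 genes in purple and a dashed line where both differences are equal. All 7 genes (IER3 by its brighter row) lie above the line, at -1.25 to -0.06 on the horizontal axis and 0.44 to 1.81 on the vertical axis.

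The genes with the most similar profile over the 12 arrays were looked up among 6313 other genes whose group means spanned at least 1. Arrays of a group share their treatment and their overall brightness, so these correlations are descriptions. Closest to the mean profile of the 7 genes were SFRP1, a secreted WNT antagonist (Pearson r = 0.997), MKI67, a proliferation marker (0.996), DOCK4 (0.994), HJURP, a centromere chaperone (0.994), CAVIN1 (0.994), IGFBP3 (0.994), FBXO5 (0.994), ZNF704 (0.993), COTL1 (0.993) and CSRP1 (0.993). All 10 passed as higher in DTE than in DT (8.68% of all genes), a count that likeness to the 7 genes largely fixes. In E minus DMSO 4 of 10 passed as lower, beside 37.2% of all genes (0 of 10 and 21.1% after quantile normalization). Taken 1 at a time, ELOVL2 was closest to the mitotic kinase gene BUB1 (0.992) and to EMP2 (0.991). EFR3B came closest to SFRP1 (0.995) and PRR11 (0.993), TFAP2C to the kinesin gene KIFC1 (0.994) and the cytokine receptor gene LIFR (0.994), and IER3 to FBXO32 (0.996) and IGFBP3 (0.996). NPPC was nearest to UBE2T (0.998) and BLVRA (0.996), CEMIP to DHRS13 (0.997) and MELK (0.997), and TMEM158 to CBR3 (0.997) and AFAP1L1 (0.997).

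The output genes of the MAPK pathway were mixed in DTE minus DT, and several of the best known did not pass. SPRY4, a feedback inhibitor, averaged 5.06 in DTE, 5.09 in DT, 9.84 in E and 11.17 in DMSO, and DTE minus DT did not pass (-0.03 ± 0.12, limma adjusted p = 0.88). The ERK phosphatase gene DUSP6 (0.07) and CCND1, which encodes cyclin D1 (0.11), did not pass either. ETV4, an ETS transcription factor, was higher in DTE by 0.42 ± 0.12 (limma adjusted p = 0.0066), with means of 5.37 in DTE, 4.94 in DT, 8.63 in E and 9.64 in DMSO. Of 20 measured genes in a list of MAPK output, 20 passed as lower in DT than in DMSO (66.2% of all genes) and 5 as higher in DTE than in DT (8.68% of all genes), with 3 lower. The 5 were TRIB1, a pseudokinase gene (0.85 ± 0.11), ETV1 (0.68 ± 0.15), the phosphatase gene DUSP5 (0.66 ± 0.15), the ephrin receptor gene EPHA4 (0.44 ± 0.12) and ETV4. Lower were the AP-1 gene FOSL1 (-0.92 ± 0.15), DUSP4 (-0.83 ± 0.12) and the cytokine gene LIF (-0.38 ± 0.11). The list's median DTE minus DT was 0.06 (quantile 0.30 with 10 higher and 2 lower), beside -0.23 for all genes (quantile -0.03 with 19.9% higher and 23.5% lower). With entinostat alone 13 of the 20 passed as lower (37.2% of all genes) and 2 as higher (10.4%), at a median of -0.52. After quantile normalization 7 passed as lower (21.1% of all genes) and 4 as higher (18.5%), at a median of -0.12. In E minus DMSO, SPRY4 and its relative SPRY2 were each at -1.33 ± 0.12.

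Relatives of each gene's own pathway moved in mixed directions. Over all genes, 8.68% passed as higher and 40.6% as lower in DTE than in DT, at a median of -0.23, and after quantile normalization 19.9% and 23.5%. In fatty acid elongation and desaturation, 16 genes were measured beside ELOVL2, of which 5 passed as higher and 5 as lower in DTE than in DT (8.68% and 40.6% of all genes), at a median of -0.08 (quantile 9 and 2). The elongase genes ELOVL7 (1.11 ± 0.15 in DTE minus DT, 1.38 ± 0.15 in E minus DMSO) and ELOVL4 (0.51 ± 0.09 and 0.94 ± 0.09) rose with entinostat in both settings, as did FADS3 (1.08 ± 0.10 and 0.88 ± 0.10). Lower in both were HACD3, a dehydratase of the elongation cycle (-0.86 ± 0.10 and -0.52 ± 0.10), and ELOVL1 (-0.78 ± 0.11 and -0.75 ± 0.11). Also lower in both were ACACA (-0.55 and -0.51) and FASN (-0.50 and -0.84), which make saturated fatty acids, and the desaturase gene SCD (-0.26 and -0.35). ELOVL5, which acts on shorter polyunsaturated acids, did not pass in either (-0.09 ± 0.10 and 0.02 ± 0.10). The desaturase genes FADS1 (-0.12 ± 0.12) and FADS2 (0.01 ± 0.11) did not pass in DTE minus DT. EFR3A, the paralog of EFR3B, was measured with 5 other genes of phosphatidylinositol 4-phosphate synthesis. It passed as higher in DTE by 0.27 ± 0.11 (limma adjusted p = 0.044) and averaged 10.02 in DTE, 9.75 in DT, 10.62 in E and 10.42 in DMSO. Of those 6 genes 1, EFR3A, passed as higher and 3 as lower in DTE than in DT (8.68% and 40.6% of all genes), at a median of -0.21 (quantile 3 and 1). The 3 were the kinase gene PI4K2B (-0.54 ± 0.10), TTC7B, a subunit of the kinase complex that EFR3B anchors (-0.49 ± 0.14), and TMEM150A (-0.43 ± 0.14).

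Among 12 AP-2 family, cofactor and neural crest genes beside TFAP2C, 2 passed as higher and 4 as lower in DTE than in DT (8.68% and 40.6% of all genes), at a median of -0.19 (quantile 3 and 3). The family members TFAP2B and TFAP2D averaged 3.86 and 3.35 in DTE, 4.04 and 3.45 in DT, 4.09 and 3.97 in E and 4.15 and 3.77 in DMSO, and neither passed in any of the 3 comparisons. SOX9 was higher in DTE than in DT (0.93 ± 0.13) and in E than in DMSO (1.17 ± 0.13), SOX10 lower in both (-0.81 ± 0.12 and -1.09 ± 0.12). FOXD3, a neural crest repressor, ran opposite to TFAP2C, at -2.07 ± 0.17 for DTE minus DT and 1.69 ± 0.17 for DT minus DMSO. Of 14 immediate early and NF-kB genes beside IER3, 3 passed as higher in DTE than in DT and 5 as lower (8.68% and 40.6% of all genes), at a median of -0.06 (quantile 8 and 1). KLF6, a zinc finger transcription factor, had 0.45 ± 0.13 in DTE minus DT, -3.05 ± 0.13 in DT minus DMSO and -0.76 ± 0.13 in E minus DMSO. FOS was lower in DTE than in DT (-0.83 ± 0.12).

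For NPPC, 9 natriuretic peptide and cyclic GMP genes were measured, of which 3 passed as higher and 1 as lower in DTE than in DT (8.68% and 40.6% of all genes), at a median of 0.06 (quantile 4 and 0). The sister peptide genes NPPA (-0.15) and NPPB (0.06) did not pass. NPR3, the clearance receptor for natriuretic peptides, was higher in DTE than in DT by 0.87 ± 0.12, and MME, a protease that degrades them, by 0.71 ± 0.12. FURIN, a convertase that processes the C-type precursor, was lower by 0.28 on the log2 scale (-0.28 ± 0.11, limma adjusted p = 0.043), but was 0.18 after quantile normalization. Of 14 hyaluronan genes beside CEMIP, 2 passed as higher and 3 as lower in DTE than in DT (8.68% and 40.6% of all genes), at a median of -0.16 (quantile 4 and 3). CEMIP2, a related transmembrane protein, was 0.72 ± 0.10 higher in DTE than in DT and 0.71 ± 0.10 higher in E than in DMSO, unlike CEMIP, which was lower in E. HMMR, a hyaluronan-binding protein of the mitotic spindle, was higher in DTE by 1.31 ± 0.13. VCAN, a hyaluronan-binding proteoglycan (-1.07 ± 0.10), and UGDH, which supplies the sugar precursor (-1.41 ± 0.10), were lower.

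Beside TMEM158, 8 genes of RAS-induced senescence were measured, with 2 higher and 3 lower in DTE than in DT (8.68% and 40.6% of all genes), at a median of -0.17 (quantile 3 and 2). IGFBP3 was higher by 0.72 ± 0.10, and LMNB1, a nuclear lamina gene, was lower (-0.35, quantile 0.14). CXCL8 was higher with entinostat alone (2.24 ± 0.16) and did not pass in DTE minus DT (-0.16 ± 0.16). Of 12 genes of class I histone deacetylases and their partners, 0 passed as higher and 8 as lower in DTE than in DT (8.68% and 40.6% of all genes), at a median of -0.51. After quantile normalization 4 passed as higher and 5 as lower (19.9% and 23.5% of all genes), at a median of -0.11. The corepressor scaffold gene SIN3A was at -1.53 ± 0.11 and RBBP4, a histone-binding subunit, at -0.92 ± 0.11. Of the class I deacetylases, HDAC8 (-0.67 ± 0.14) and HDAC2 (-0.43 ± 0.11, quantile -0.09) passed as lower, while HDAC1 (-0.18 ± 0.10) and HDAC3 (0.08 ± 0.10) did not pass.

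On the deposited scale the nearest measured coding genes on the chromosome were lower in DTE than in DT or did not pass. For the 14 neighbours of the 7 genes, 1 on each side by RefSeq order, 0 passed as higher in DTE than in DT and 9 as lower (8.68% and 40.6% of all genes), with a median of -0.42. After quantile normalization 1 passed as higher, ADCY3 beside EFR3B (0.42), and 5 as lower (19.9% and 23.5% of all genes). With so few neighbours, nothing is read from these counts. Next to TFAP2C, RTF2 was at -1.02 ± 0.11 and the growth factor gene BMP7 at -1.40 ± 0.11. Next to NPPC, COPS7B was at -0.84 ± 0.10 and DIS3L2 at -0.69 ± 0.13. SMIM13 beside ELOVL2 was at -0.41 ± 0.13 (quantile 0.04), and FLOT1 beside IER3 at -0.44 ± 0.11 (quantile 0.04). ELOVL2-AS1, a long non-coding RNA gene whose RefSeq span overlaps the start of ELOVL2 on the other strand, averaged 4.02 in DTE, 3.73 in DT, 4.06 in E and 3.96 in DMSO and did not pass (0.29 for DTE minus DT).

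**Figure D5:**
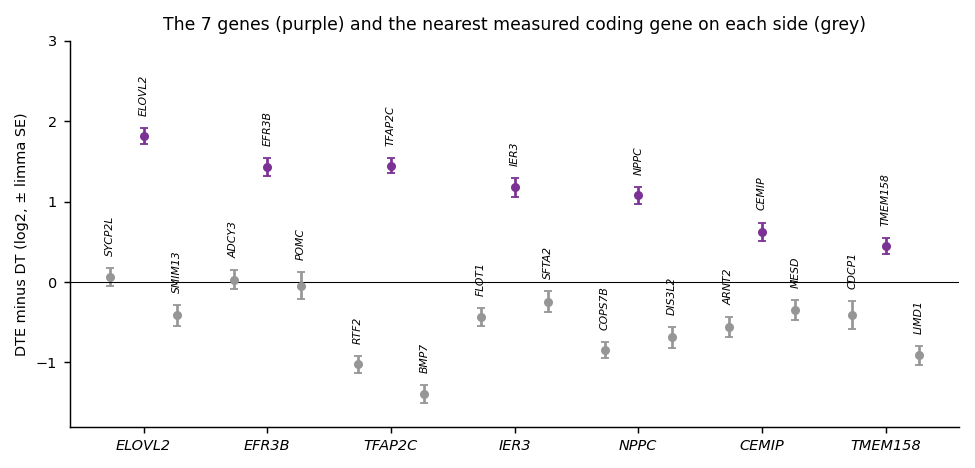
DTE minus DT (log2 difference ± limma standard error) of each of the 7 genes in purple and of the nearest measured coding gene on either side in grey. The 7 genes (IER3 by its brighter row) lie at 0.44 to 1.81, and the 14 neighbours between -1.40 (BMP7) and 0.06 (SYCP2L).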

How the data were processed

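RNA from 12 samples (3 per group) was measured on single-colour Affymetrix arrays. The deposited values are linear intensities that the authors made with RMA in Transcriptome Analysis Console, per the submitters' processing notes. ERCC spike-in controls were used, per the labels' protocols, and how arrays were scaled is not given in the sources used here. Log2 of each intensity was taken. Of 29592 rows, 14783 had 1 gene symbol, 0 had several and 14809 had none. Where a gene had more than 1 row (169 genes) the brightest row on average was taken. Differences were tested with limma 3.58.1 (lmFit, eBayes) in R 4.3.3 on 12 arrays with a mean per group, with 8 residual and 7.68 prior degrees of freedom. Adjusted p-values are Benjamini-Hochberg over 14599 genes, and genes passed under 0.05. Having 3 arrays per group limits the precision. The fit was tested on simulated data.

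The 7 genes and the gene lists were chosen with earlier results of these data known. By rule the text names the 7 genes, up to 4 list genes with the largest absolute difference in DTE minus DT or E minus DMSO among those that passed, up to 2 per list that did not, the 10 largest DTE gains among genes lower by at least 1 in DT, the closest profiles, and SPRY4, DUSP6, ETV4 and CCND1. ACACA, CEMIP2, DUSP4, ELOVL1, EPHA4, ETV1, FADS1, FADS2, FASN, HDAC2, HDAC8, LIF, SCD and TRIB1 were chosen after their values were seen. The chromosomal neighbours and ELOVL2-AS1 were added by position alone. Alternatives were quantile normalization, array medians subtracted, no dim genes, trended robust variance, mean of rows, all rows, only the groups compared, a replicate block and leaving out each array. Titles number arrays 1 to 3 without naming a shared batch, so same-numbered arrays were not treated as paired. Between deviations from group means, same-numbered arrays of different groups had r of -0.106 to 0.121 (median 0.032). Other pairs had r of -0.118 to 0.072 (median -0.011). A weak link between arrays of the same number is therefore not excluded. The columns all belong to these samples, and no 2 arrays were identical. Sequences are RefSeq's. Figures were drawn with matplotlib 3.10.9.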

Additional observations from a re-analysis of the deposited data

Results flagged for a closer look

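On the deposited scale, in 5 of the 7 genes every DTE array lay above every DT array while every E array lay below every DMSO array. On that scale the difference made by entinostat in these 5 thus had opposite signs with and without the MAPK inhibitors. Over all genes 9.99% stood apart in the first way and 43.2% in the second. The share doing both was not counted, so nothing is read from the count of 5. The choice of the genes favoured the first. The value of (DTE minus DT) minus (E minus DMSO) was 2.25 for ELOVL2, 1.97 for EFR3B, 1.79 for TFAP2C, 1.74 for CEMIP and 1.69 for TMEM158 on the log2 scale. This difference was not tested, because the DTE and DT arrays were used to choose the genes. After quantile normalization the falls in E passed for CEMIP (-0.93) and TMEM158 (-0.87) and not for ELOVL2 (-0.02), EFR3B (-0.13) or TFAP2C (-0.03).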

How the results depend on the processing

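The scaling changed most. With quantile normalization 2898 genes were higher and 3430 lower in DTE than in DT (against 1267 and 5933), 2205 and 2028 in DT than in DMSO (against 434 and 9660), and 2696 and 3082 in E than in DMSO (against 1513 and 5424). With array medians subtracted, 1945 were higher in DTE than in DT, and 2586 were higher and 4263 lower in DT than in DMSO. Without the dimmest 40% of genes 259 were higher in DT than in DMSO, with fewer genes tested. With all rows, more features were tested, and 2189 and 9363 passed in DTE minus DT, 820 and 16091 in DT minus DMSO and 2591 and 8380 in E minus DMSO. Leaving out 1 array gave 1075 to 1271 higher and 5101 to 6597 lower in DTE minus DT, 373 to 452 and 8410 to 9882 in DT minus DMSO, and 1313 to 1576 and 4515 to 5617 in E minus DMSO.

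E minus DMSO, not passing on the deposited scale, changed sign for IER3 with quantile normalization (0.25), array medians subtracted (0.042), and for NPPC likewise (0.11 and 0.033). Leaving out 1 array gave -0.11 to 0.0079 for IER3 and -0.12 to 0.035 for NPPC, both above 0 only without E replicate 1. The cause was not tested. The other 5 genes kept their sign in E minus DMSO under every alternative, and ELOVL2, EFR3B and TFAP2C lost their call with quantile normalization alone. No array left out ended a call of these 5, with a highest adjusted limma p of 0.036 (TFAP2C). With the replicate block 1262 genes were higher and 5979 lower in DTE than in DT, and no call of the 7 genes in E minus DMSO changed, while for 9 of 12 arrays the closest deviations were those of the same number. DTE minus DT stayed above 0 and DT minus DMSO below 0 in all 7 genes under all alternatives, as the choice of genes favours. With no detection call used here, dim values could not be set against background.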
